A study of Mus musculus with 6 samples.

Results

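Fibrillar collagens are the chains that assemble into the banded fibrils of connective tissue and scar. Their transcripts were examined in the infarct area of mouse hearts treated with LGK974 or with its vehicle. The 10 genes Col1a1, Col1a2, Col2a1, Col3a1, Col5a1, Col5a2, Col5a3, Col11a1, Col11a2 and Col24a1 were taken by name as members of this family. No measured value was used to pick them, but earlier results of these data were known. They are 10 of the 36047 genes with a transcript in the deposited data, and all 10 were among the 20094 genes with enough counts to be tested.

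The study sequenced RNA from 6 hearts of C57BL6 mice, given in the labels as 12 weeks old and described in the methods as female. All 6 had ischemia followed by reperfusion (I/R), and the infarcted tissue was cut out 48 h later. In the LGK974 group, 3 mice received LGK974 by gavage every day from the end of surgery. This small molecule inhibits Porcupine, the enzyme that lipid-modifies Wnt proteins so that they can be secreted. In the DMSO group, 3 mice received the solvent alone. Both groups carry the same injury, so an uninjured level of collagen RNA is not part of the comparison, and no genetic alteration is involved.

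Each fibrillar collagen molecule is a triple helix of 3 chains, made as a procollagen that is hydroxylated and folded in the endoplasmic reticulum, trimmed outside the cell and then crosslinked. Type I (chains encoded by Col1a1 and Col1a2) and type III (Col3a1) form the bulk of cardiac scar fibrils, and type V (Col5a1, Col5a2, Col5a3) sits within type I fibrils and controls their start and width. Type II (Col2a1) and type XI (Col11a1, Col11a2, which can also join type V chains) are best known from cartilage, and type XXIV (Col24a1) from bone and cornea. In the heart these genes are transcribed mainly by fibroblasts, and in an infarct by the myofibroblasts that arise from them.

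The libraries held 41579787 to 80398211 estimated counts, of which genes encoded in the mitochondrial genome took 28.2 to 53.7%. To gauge how much of a low value may be stray reads, 1501 odorant, vomeronasal and bitter taste receptor genes, which heart tissue is not known to use, were counted in each library. They held 3.07, 4.27 and 11.0 counts per kb of transcript in the 3 LGK974 libraries and 3.01, 11.6 and 32.1 in the 3 DMSO libraries. DMSO replicate 1 stood apart with the highest value, so values that rest on this library are also given without it. Marker genes of heart muscle such as Myh6 and Ttn were abundant in every library, and none of the cell type markers used here was at 0 in all libraries. Tissue of an infarct is a mixture, and a lower level of a gene can come from fewer cells of a type or from less RNA per cell, which cannot be told apart in bulk samples.

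Transcripts of the main fibrillar collagens were more abundant under LGK974 than under DMSO. Col1a1, Col1a2, Col3a1, Col5a1 and Col5a2 were each 1.76 to 2.20 times as high in the mean of the LGK974 libraries. In TMM-scaled CPM, every LGK974 library lay above every DMSO library for each of these 5 genes. This separation held for 5 of the 10 members, against 10.7% of all genes tested. No member was lower in every LGK974 library than in every DMSO library, which held for 7.27% of all genes. The separation depended on the scaling, and in the TPM values of the authors only Col3a1 of these 5 genes kept it. There LGK974 replicate 2 was at 103 for Col1a1, beside 109 in DMSO replicate 2. The same 2 libraries were at 67.9 and 69.2 for Col1a2, 20.3 and 24.6 for Col5a1, and 28.6 and 36.9 for Col5a2. The remaining type V chain, Col5a3, had a mean 1.25 times as high with overlapping groups, and the 4 cartilage and bone type genes had few counts, from 0.128 to 15.6 times the level of stray reads. The median log2 fold change of the 10 members was 0.57, beside a median of -0.13 over all genes tested, of which 40.5% were higher under LGK974.

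With 3 mice a group, none of these differences passed the adjusted threshold of the main test. At an adjusted p under 0.05, edgeR's quasi-likelihood test called 0 of the 10 members and 0.0% of all genes, and the lowest adjusted p of any gene was 0.368. At an unadjusted p under 0.05 the same test gave 5 members as higher, namely the 5 whose groups did not overlap, against 6.26% of all genes. It gave 0 members as lower, against 7.18% of all genes. DESeq2 called 3 members as higher, Col1a1, Col1a2 and Col3a1, against 0.985% of the 22238 genes to which it gave an adjusted p (1.42% were called in either direction). Limma-voom with sample quality weights called 0 members. In simulated data with known changes, 42 of the 174 genes that DESeq2 called were false, against 6 of 131 for edgeR. The adjusted p-values of DESeq2 are therefore to be read with caution here. Without DMSO replicate 1, DESeq2 called 2 members as higher, Col1a2 and Col3a1, against 2.04% of 13597 genes, and edgeR gave 5 members as higher at an unadjusted p under 0.05, against 7.12% of genes. Without LGK974 replicate 3 that number was 2, Col1a2 and Col3a1, against 3.23% of 19712 genes.

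**Figure D1:**
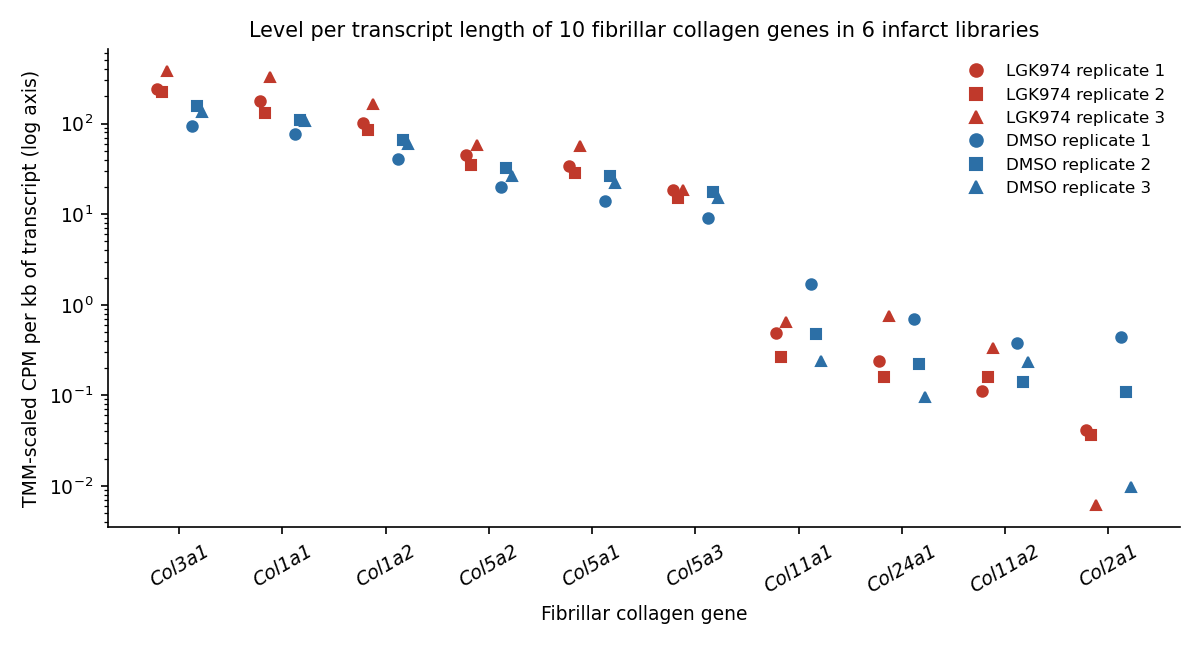
Levels of the 10 genes in TMM-scaled CPM (counts relative to library size) per kb of transcript on a log axis, with LGK974 in red, DMSO in blue, and 1 point for each library. The first 6 genes stand in the same order in all 6 libraries, and from Col3a1 to Col5a2 and for Col5a1 all red points lie above all blue points.

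Type I collagen was represented by both of its chains. Col1a1 (chr11:94936224-94953042, plus strand, GRCm38) encodes the alpha 1 chain, present as a pair in each molecule. It was measured at 1051, 783 and 1961 CPM (counts scaled to the library total after TMM) in LGK974 replicates 1, 2 and 3, and at 459, 652 and 630 CPM in DMSO replicates 1, 2 and 3. LGK974 replicate 3 was the highest library and DMSO replicate 1 the lowest, and the groups did not overlap. The means were 1265 ± 617 CPM (SD, n = 3) and 580.1 ± 106 CPM (SD, n = 3). The log2 fold change was 1.12 (standard error 0.372, adjusted p = 0.368, edgeR), which is 2.18-fold with a 95% interval of 1.20 to 3.96. DESeq2 gave an adjusted p of 0.0336 with all libraries and 0.382 without DMSO replicate 1.

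Col1a2 (chr6:4504814-4541544, plus strand) encodes the alpha 2 chain, the single partner of that pair. Its levels were 541, 453 and 886 CPM under LGK974 and 220.2, 355 and 319 CPM under DMSO. The same libraries were highest and lowest as for Col1a1, and again no DMSO library reached the LGK974 libraries. The log2 fold change was 1.07 (standard error 0.317, adjusted p = 0.368, edgeR), or 2.10-fold with a 95% interval of 1.26 to 3.50. DESeq2 gave adjusted p-values of 0.0239 and, without DMSO replicate 1, 0.0410.

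Type III collagen, a homotrimer of the Col3a1 chain that is made early in granulation tissue, gave the highest level of the family. Col3a1 (chr1:45311538-45349706, plus strand) was measured at 1352, 1251 and 2124 CPM under LGK974 and at 519, 876 and 754 CPM under DMSO. All LGK974 libraries were above all DMSO libraries, with LGK974 replicate 3 again the highest. The means were 1576 ± 477 CPM (SD, n = 3) and 717 ± 182 CPM (SD, n = 3), and the log2 fold change was 1.14 (standard error 0.319, adjusted p = 0.368, edgeR). The fold was 2.20 with a 95% interval of 1.32 to 3.67. In DESeq2 the adjusted p was 0.00710 with all libraries and 0.00971 without DMSO replicate 1.

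The type V genes did not all follow the same pattern. Col5a1 (chr2:27886425-28039514, plus strand), whose chain is part of nearly every type V molecule, was at 283, 238 and 482 CPM under LGK974 and at 118, 222 and 185 CPM under DMSO. The lowest LGK974 library was close to the highest DMSO library, without overlap. Its log2 fold change was 0.93 (standard error 0.339, adjusted p = 0.368, edgeR), or 1.91-fold with a 95% interval of 1.11 to 3.29. Col5a2 (chr1:45374321-45503282, minus strand), the partner chain, lies beside Col3a1 on the same chromosome and points the other way. It was at 301, 232 and 389 CPM under LGK974 and at 133, 213 and 176 CPM under DMSO, again with no overlap. Its log2 fold change was 0.82 (standard error 0.265, adjusted p = 0.368, edgeR), or 1.76-fold with a 95% interval of 1.15 to 2.70. DESeq2 did not call either gene, with adjusted p-values of 0.0810 for Col5a1 and 0.0644 for Col5a2.

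Col5a3 (chr9:20770050-20815067, minus strand) encodes a minor type V chain found in a restricted set of tissues. Its levels were 113, 92.8 and 112 CPM under LGK974 and 55.8, 107 and 92.0 CPM under DMSO. Only DMSO replicate 1 stood clearly below the others, and DMSO replicate 2 was above LGK974 replicate 2. The log2 fold change was 0.32 (standard error 0.252, adjusted p = 0.531, edgeR), and its 95% interval of 0.831 to 1.87-fold includes no difference. Without DMSO replicate 1 the log2 fold change of Col5a3 was 0.11.

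Col27a1, a further fibrillar collagen gene that was not among the 10, was at 33.2 ± 11.1 CPM (SD, n = 3) under LGK974 and 20.5 ± 0.480 CPM (SD, n = 3) under DMSO. Its groups did not overlap, and the log2 fold change was 0.70 (standard error 0.239, adjusted p = 0.368, edgeR; adjusted p = 0.142, DESeq2).

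**Figure D2:**
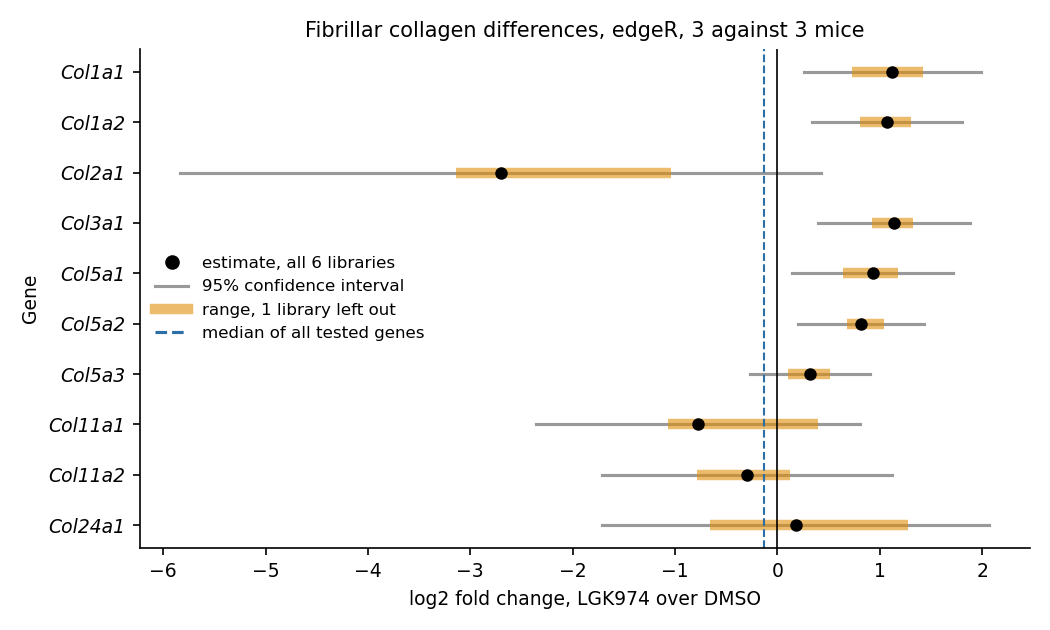
Log2 fold change of each gene, LGK974 over DMSO, from edgeR, with its 95% confidence interval in grey and in orange the range of the 6 fits that each left out 1 library. The intervals of Col1a1, Col1a2, Col3a1, Col5a1 and Col5a2 lie above 0, and the orange ranges of Col11a1, Col11a2 and Col24a1 cross 0.

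The estimates of the 5 non-overlapping genes were also read with libraries left out. As every LGK974 library lay above every DMSO library, their sign could hardly change, and the ranges show size only. Leaving out each library in turn gave log2 fold changes of 0.73 to 1.43 for Col1a1, 0.80 to 1.31 for Col1a2 and 0.92 to 1.33 for Col3a1. The ranges were 0.64 to 1.18 for Col5a1 and 0.68 to 1.04 for Col5a2. The lowest value of Col1a1, Col1a2, Col3a1 and Col5a1 came without LGK974 replicate 3, the library with the most collagen RNA.

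Promoter sequence is shown for 3 of the genes whose groups did not overlap and for Col5a3, whose groups did, so that the regions before their starts can be set side by side. The 250 bases before each start are from RefSeq on GRCm38.p6, written 5′ to 3′ on the strand of the gene, and 7 of the 10 members were matched in that table. Capitals mark the CCAAT box, the TATA box letters TATAAA and the GC box letters GGGCGG. Each was searched on both strands, and no marked match overlaps another. The windows are chr6:4505368-4505617 (plus strand) for Col1a2, chr1:45311288-45311537 (plus strand) for Col3a1, chr2:27886175-27886424 (plus strand) for Col5a1 and chr9:20815068-20815317 (minus strand) for Col5a3. They follow the starts of RefSeq, which for Col1a2 lies inside the longer GENCODE span given above.
Col1a2: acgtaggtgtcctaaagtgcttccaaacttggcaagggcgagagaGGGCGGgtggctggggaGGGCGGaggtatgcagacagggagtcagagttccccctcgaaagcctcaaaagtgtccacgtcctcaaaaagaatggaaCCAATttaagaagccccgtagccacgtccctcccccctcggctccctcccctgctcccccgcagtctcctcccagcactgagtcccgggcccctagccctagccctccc
Col3a1: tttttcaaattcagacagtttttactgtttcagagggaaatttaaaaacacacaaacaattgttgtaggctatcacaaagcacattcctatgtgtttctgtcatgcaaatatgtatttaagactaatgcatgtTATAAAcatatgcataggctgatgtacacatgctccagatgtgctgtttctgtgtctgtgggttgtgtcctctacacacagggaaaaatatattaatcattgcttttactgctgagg
Col5a1: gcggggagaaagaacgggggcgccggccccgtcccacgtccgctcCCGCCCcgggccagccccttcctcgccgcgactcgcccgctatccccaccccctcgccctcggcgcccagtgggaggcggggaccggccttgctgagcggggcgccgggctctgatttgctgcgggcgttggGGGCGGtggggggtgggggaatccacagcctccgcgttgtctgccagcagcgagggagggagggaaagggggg
Col5a3: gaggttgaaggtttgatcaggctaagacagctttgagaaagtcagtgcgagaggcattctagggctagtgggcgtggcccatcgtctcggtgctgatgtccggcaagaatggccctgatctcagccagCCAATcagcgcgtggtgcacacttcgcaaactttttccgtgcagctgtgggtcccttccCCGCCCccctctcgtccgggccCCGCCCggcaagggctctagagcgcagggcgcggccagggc

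The 4 windows differ widely in composition although 3 of the genes had similar fold changes. GC made up 35.2% of the Col3a1 window and 76.4% of the Col5a1 window, beside 62.0% for Col1a2, 62.8% for Col5a3 and a median of 52.4% over all RefSeq windows. Col3a1 holds a TATAAA starting 117 bases before the start and neither of the other motifs. Col1a2 holds a CCAAT that starts 109 bases before its start and 2 GGGCGG matches farther out, and Col5a3 a CCAAT 122 bases before its start and 2 GGGCGG matches nearer to it. Of the 7 members in the table, 3 hold a CCAAT, 2 a TATAAA and 5 a GGGCGG. Over all 32851 windows of the same length the shares are 33.8%, 12.4% and 32.7%. A letter match is a description of the sequence and does not show a site in use.

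The genes best known from cartilage and bone had few counts. Col2a1 had 18, 10 and 2 estimated counts in the LGK974 libraries and 89, 27 and 2 in the DMSO libraries. In all 6 libraries this was below the counts that the background per kb predicts for a transcript of its length, at 0.128 to 0.543 times that number. Within the DMSO group its counts followed the order of the stray reads. Its log2 fold change of -2.70 has a standard error of 1.35 (adjusted p = 0.380, edgeR), and Col2a1 was not detectable above stray reads in these libraries.

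Col11a1, a type XI chain, was at 3.70, 2.05 and 4.98 CPM under LGK974 and at 12.9, 3.68 and 1.82 CPM under DMSO. Only DMSO replicate 1 was high, and its counts were 2.08 times the background for the length. The log2 fold change was -0.77 (standard error 0.682, adjusted p = 0.569, edgeR), and without DMSO replicate 1 it was 0.40. Relative to background, Col11a1 was above 1 in every library, at 3.37 to 13.5 under LGK974 and 2.0 to 3.22 under DMSO.

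Col24a1 was at 1.70, 1.14 and 5.36 CPM under LGK974 and at 4.98, 1.57 and 0.688 CPM under DMSO. LGK974 replicate 3 and DMSO replicate 1 were the high libraries, but only the former lay well over its background, at 15.6 times against 0.863 times. Its log2 fold change was 0.18 (standard error 0.815, adjusted p = 0.925, edgeR), and it was 1.28 without DMSO replicate 1 and -0.66 without LGK974 replicate 3.

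Col11a2, the other type XI chain, was at 0.683, 0.970 and 2.02 CPM under LGK974 and at 2.26, 0.848 and 1.40 CPM under DMSO. Its counts were 0.875, 2.01 and 6.95 times background in the LGK974 libraries and 0.463, 0.584 and 3.13 times in the DMSO libraries. The log2 fold change was -0.30 (standard error 0.609, adjusted p = 0.820, edgeR) and 0.13 without DMSO replicate 1.

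**Figure D3:**
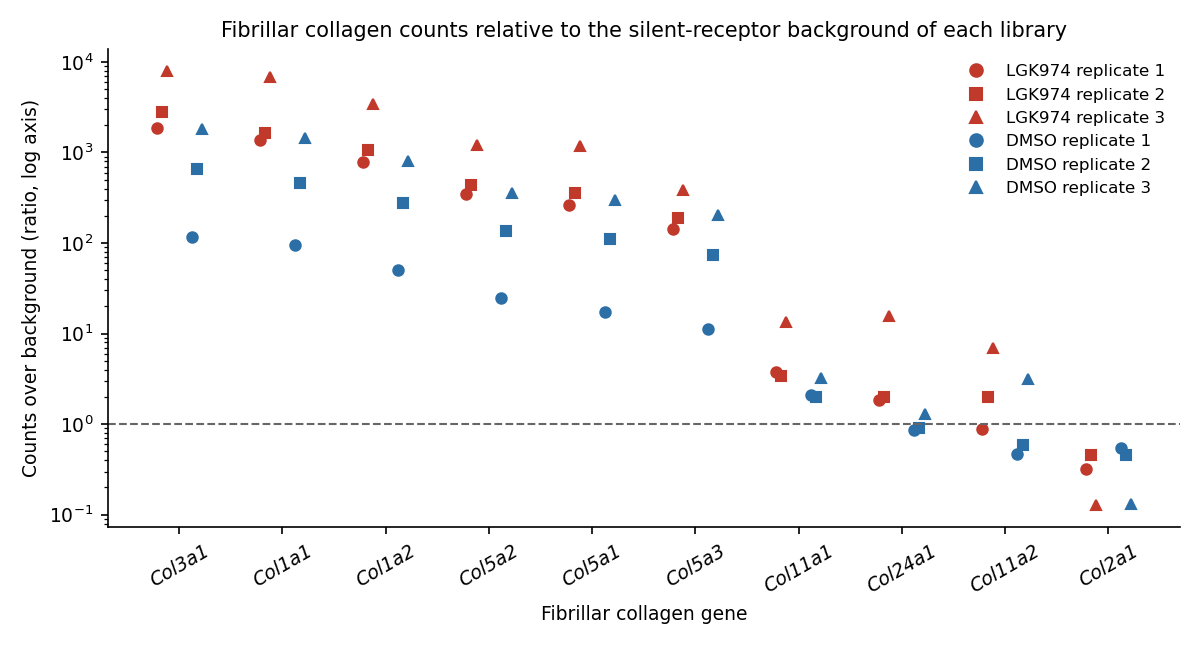
Estimated counts of each gene divided by the counts that silent receptor genes of the same library predict for its length, on a log axis, with 1 point for each library and a dashed line at 1. The 6 genes of types I, III and V lie at least 11.3 times over background in every library, while Col2a1 lies below it in all 6.

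For the 6 abundant genes stray reads were a small part of the value. The smallest ratio to background was 11.3, for Col5a3 in DMSO replicate 1, and the largest was 7948, for Col3a1 in LGK974 replicate 3. DMSO replicate 1 had the smallest ratio for each of these 6 genes and also the lowest CPM of all libraries. With the background subtracted from the counts of each gene, the log2 fold changes were 0.94 for Col1a1, 0.90 for Col1a2, 0.96 for Col3a1, 0.79 for Col5a1 and 0.66 for Col5a2. That fit gave 6 members as higher at an unadjusted p under 0.05 in edgeR, against 6.44% of 16918 genes. They were these 5 and Col24a1, whose DMSO counts were then close to 0, with 0 members at an adjusted p under 0.05.

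Per kb of transcript, the order of the abundant genes was the same in all 6 libraries: Col3a1, Col1a1, Col1a2, Col5a2, Col5a1 and Col5a3 from high to low. The mean levels in CPM per kb under LGK974 were 283 ± 85.8 (SD, n = 3) for Col3a1, 213 ± 104 for Col1a1 and 117 ± 42.7 for Col1a2. The type V genes followed at 46.4 ± 11.9 for Col5a2, 39.8 ± 15.4 for Col5a1 and 17.3 ± 1.86 for Col5a3. Under DMSO the means were 129 ± 32.7, 97.8 ± 17.8, 55.8 ± 13.1, 26.3 ± 6.05, 20.8 ± 6.28 and 13.9 ± 4.32 in that order. In both groups the neighbours Col3a1 and Col1a1, and the neighbours Col5a2 and Col5a1, lay within an SD of each other in the means, although their order did not change within any library. The order of the 4 low genes varied from library to library.

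Counts per kb were also expressed as shares of the summed level of the 10 genes. Types I and III together made up 84.1, 84.8 and 86.6% of this pool in the LGK974 libraries and 82.0, 81.2 and 82.5% in the DMSO libraries. Type V made up 15.7, 15.1 and 13.2% under LGK974 and 16.8, 18.5 and 17.4% under DMSO. Every LGK974 library thus had a lower type V share than every DMSO library, although the difference was a few percentage points. Col1a2 was the steadiest member, with 15.9 to 16.3% of the pool in all 6 libraries.

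The 10 genes together held 0.682, 0.538 and 1.15% of all counts outside the mitochondrial genome under LGK974, and 0.208, 0.421 and 0.371% under DMSO. The groups did not overlap, and LGK974 replicate 3 and DMSO replicate 1 were the extremes. The means were 0.791 ± 0.321% (SD, n = 3) and 0.333 ± 0.112% (SD, n = 3), with a two-sided exact permutation p of 0.1, the smallest that 3 against 3 libraries can give. The difference in the means, 0.458 percentage points, was 0.277 without LGK974 replicate 3. With counts scaled from TPM it was 0.186, but that scale divides by transcript length, so the size cannot be set beside the others.

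Ratios between chains within a library do not depend on how libraries are scaled. The pair of type I genes kept its proportion: Col1a1 was 1.77 ± 0.221 times Col1a2 per kb under LGK974 and 1.77 ± 0.113 times under DMSO (SD, n = 3 each; two-sided exact permutation p = 1). Col3a1 was 1.41 ± 0.277 times Col1a1 under LGK974 and 1.30 ± 0.117 times under DMSO (exact permutation p = 0.7). Col5a2 was 0.233 ± 0.0481 times Col1a1 under LGK974 and 0.268 ± 0.0228 times under DMSO (exact permutation p = 0.5). For these ratios and for Col5a1 to Col5a2, at 0.842 ± 0.121 and 0.782 ± 0.0731 (exact permutation p = 0.6), the groups overlapped.

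The ratio of Col5a3 to Col5a1 differed the most of the 5 that were tested. It was 0.549, 0.536 and 0.319 per kb in the LGK974 libraries and 0.649, 0.662 and 0.685 in the DMSO libraries. All LGK974 libraries were lower, with the widest gap in LGK974 replicate 3. The mean log2 ratio was lower by 0.55 on the log2 scale (two-sided exact permutation p = 0.1, the smallest possible; adjusted over the 5 ratios 0.5), so the difference did not pass a threshold of 0.05 and could not have done so with these group sizes. Without LGK974 replicate 3 the log2 difference was -0.29.

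**Figure D4:**
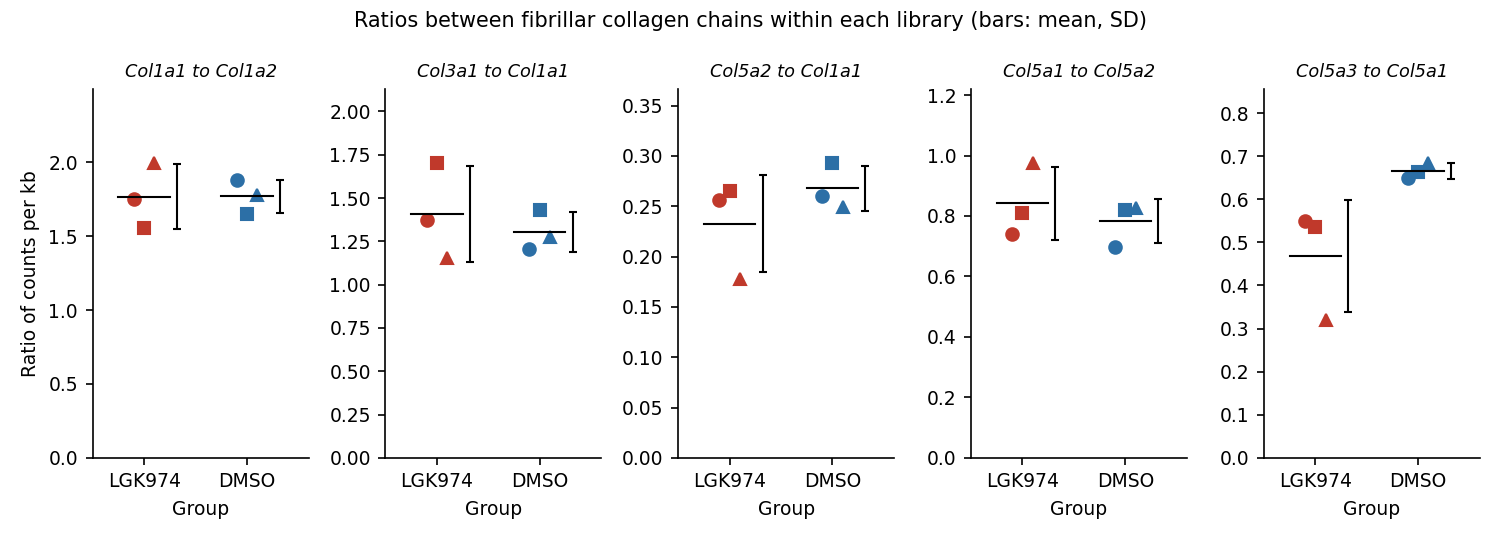
Ratios of counts per kb between 5 pairs of fibrillar collagen genes in each library, on axes that start at 0, with LGK974 in red, DMSO in blue, lines for the mean and bars for the SD (n = 3). The groups overlap in all pairs except Col5a3 to Col5a1, where the LGK974 libraries sit at 0.319 to 0.549 and the DMSO libraries at 0.649 to 0.685.

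The likeness of each member to the type I and III genes over the 6 libraries was described by the Pearson correlation of log2 CPM with the mean of Col1a1, Col1a2 and Col3a1. It was 0.99 for Col5a1, 0.98 for Col5a2 and 0.76 for Col5a3. For the low genes it was 0.22 for Col24a1, -0.11 for Col11a2, -0.26 for Col11a1 and -0.72 for Col2a1. The 6 points fall into the 2 groups, share library composition and depth, and are given no p. Among 13805 other genes with a mean of at least 100 counts, the 5 with the most similar pattern were Ptpn6 (r = 0.998), Irf5 (0.997), Nfkbiz (0.996), Loxl2 (0.996) and Elf4 (0.995). Ptpn6, a phosphatase of blood cells, was at 18.1, 14.6 and 28.2 CPM under LGK974 and at 6.99, 10.9 and 10.5 CPM under DMSO, in the same order of libraries as Col1a1 within each group. Loxl2, which encodes an enzyme that crosslinks collagen, is the member of this set with a direct role on fibrils.

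The members were also searched for letters that pair with the miR-29 family, microRNAs known to bind collagen transcripts. The mature forms are shown from RefSeq with the seed, bases 2 to 8, in capitals, because all 3 have the same seed. Mir29a lies at chr6:31062673-31062694 (minus strand) and Mir29c at chr1:195037600-195037621 (plus strand), positions of the mature form on GRCm38.p6, and miR-29b comes from 2 genes, at chr1:195037091-195037113 (plus strand) and chr6:31063025-31063047 (minus strand). Mature microRNAs were not measured in these libraries.
miR-29a-3p: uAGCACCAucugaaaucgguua
miR-29b-3p: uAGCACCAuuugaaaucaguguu
miR-29c-3p: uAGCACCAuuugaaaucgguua

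The letters TGGTGCT, which pair with this seed, occur on the transcript strand in the 3′ UTR of 8 of the 10 members. Among 20965 genes with an annotated 3′ UTR, 2719 or 13.0% hold the match, where the longest protein-coding transcript of each gene was read. Col5a1 holds 4 matches in 2498 bases of UTR, Col5a3 holds 3 in 785 bases and Col11a1 holds 2 in 1891 bases. Col1a1, Col2a1, Col3a1, Col5a2 and Col24a1 hold 1 each, while Col1a2 and Col11a2 hold none. The median UTR over all genes is 937 bases, and those of the members run from 438 to 2498 bases. A match is a string of letters and not a measured site.

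Below, 30 bases around a match are given for Col1a1, Col3a1 and Col5a2, whose single matches stand in genes with non-overlapping groups, and for Col5a3, which has the most matches per kb. Capitals mark the match, and the positions on GRCm38 are chr11:94952523-94952552 (plus strand) for Col1a1, chr1:45348967-45348996 (plus strand) for Col3a1, chr1:45374958-45374987 (minus strand) for Col5a2, and chr9:20770773-20770802, chr9:20770496-20770525 and chr9:20770244-20770273 (minus strand) for the 3 matches of Col5a3.
Col1a1: gtgggaaggaatttcTGGTGCTatagaagc
Col3a1: ttcaaaatgtctcaaTGGTGCTataataaa
Col5a2: cttttcttttaatgaTGGTGCTaaaattat
Col5a3, match nearest to the stop codon: cccacatgggctcctTGGTGCTgaggctct
Col5a3, middle match: ctccaccaggcctttTGGTGCTattccttt
Col5a3, last match: aatcaggatcctacaTGGTGCTgccctgct

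The number of matches can be set beside the group differences. Col1a2, with no match, had a log2 fold change of 1.07, next to 1.12 for Col1a1, 1.14 for Col3a1 and 0.82 for Col5a2 with 1 match each. Col5a1, with 4 matches, had 0.93, and Col5a3, with 3, had 0.32. The other members, with 0 to 2 matches, had log2 fold changes of -2.70 to 0.18 from few counts.

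Genes that act on fibrillar collagen were read from lists of pathway genes, most of which were higher under LGK974. None of these genes passed the adjusted threshold in edgeR. The shares over all genes, for every list below, were 6.26% higher and 7.18% lower at an unadjusted p under 0.05 in edgeR. DESeq2 called 0.985% of genes as higher at its adjusted threshold. Of 17 genes for procollagen folding and hydroxylation, 15 were higher, 9 of them at an unadjusted p under 0.05 in edgeR against 6.26% of all genes, and 0 were lower at that level. DESeq2 called 1. The median log2 fold change of the list was 0.46. The smallest p was that of P4ha3, a prolyl 4-hydroxylase subunit, at 16.7 ± 3.0 CPM under LGK974 and 6.68 ± 0.948 CPM under DMSO (SD, n = 3 each). P3h1, which 3-hydroxylates proline, was at 30.1 ± 7.22 and 17.1 ± 4.01 CPM, and P4hb, the shared subunit of the prolyl 4-hydroxylases, at 241 ± 33.4 and 143 ± 33.4 CPM.

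For propeptide cleavage and crosslinking, 14 of 15 listed genes were tested, 10 were higher and 4 lower. At an unadjusted p under 0.05, edgeR gave 5 as higher and 2 as lower, and DESeq2 called 2 at its adjusted threshold. The genes with the smallest p encode lysyl oxidases, which start the crosslinks between collagen chains. Lox was at 251 ± 68.0 CPM under LGK974 and 116 ± 31.0 CPM under DMSO (SD, n = 3 each). On the log2 scale this was a difference of 1.12 with a standard error of 0.285 (adjusted p = 0.368, edgeR, and 0.0105, DESeq2). Loxl2 had a log2 fold change of 1.29 and Loxl3 of 0.96. The 2 lower genes at that level were Adamts3, a procollagen N-propeptidase, and Mep1b, a meprin subunit, named here after their values were seen. Mep1b was at 8.80 CPM in DMSO replicate 1 and its log2 fold change was -1.49, or -0.38 without that library.

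Among 24 genes of fibril-associated proteins, 16 were higher and 8 lower, with 7 higher and 0 lower at an unadjusted p under 0.05 in edgeR and 6 called by DESeq2. Postn, whose product periostin binds type I collagen, was at 486 ± 154 CPM under LGK974 and 165 ± 41.3 CPM under DMSO (SD, n = 3 each). Its log2 difference was 1.56 (adjusted p = 0.368, edgeR, and 5.4e-05, DESeq2). Col12a1 and Col14a1 encode collagens that lie on the surface of type I fibrils, and their log2 fold changes were 1.37 and 0.98. Of 11 collagen receptor genes, 7 were higher, 2 of them at an unadjusted p under 0.05, and 1 was lower at that level, while DESeq2 called Mrc1 alone. Mrc1 and Mrc2, both endocytic receptors, had log2 fold changes of 0.82 and 0.75. Gp6, the collagen receptor of platelets, was the lower gene, at 0.801, 0.858 and 0.407 CPM under LGK974 and 4.60, 2.57 and 1.11 CPM under DMSO, where the DMSO libraries follow the order of their stray reads.

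Of 15 tested genes for collagenases and collagen breakdown, 10 were higher and 5 lower, with 4 higher and 0 lower at an unadjusted p under 0.05 in edgeR and 2 called by DESeq2. The list also holds the inhibitors Timp1, Timp2 and Timp3, so its counts do not measure breakdown alone. Timp1, an inhibitor of matrix metalloproteinases, was at 82.2 ± 32.8 CPM under LGK974 and 35.7 ± 7.05 CPM under DMSO (SD, n = 3 each), which is 1.20 on the log2 scale. The lysosomal proteases Ctsb and Ctsl had log2 fold changes of 0.92 and 0.58. Of 18 genes that regulate collagen transcription, mostly inducers but also the inhibitor Smad7 and the repressor Fli1, 17 were higher, 5 of them at an unadjusted p under 0.05, and 0 were lower at that level. The leading genes were the growth factors Tgfb2, at 1.23, and Tgfb3, at 0.73, and the matricellular factor Ccn2, at 1.0, all as log2 fold changes, and DESeq2 called Tgfb2 and Ccn2.

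**Figure D5:**
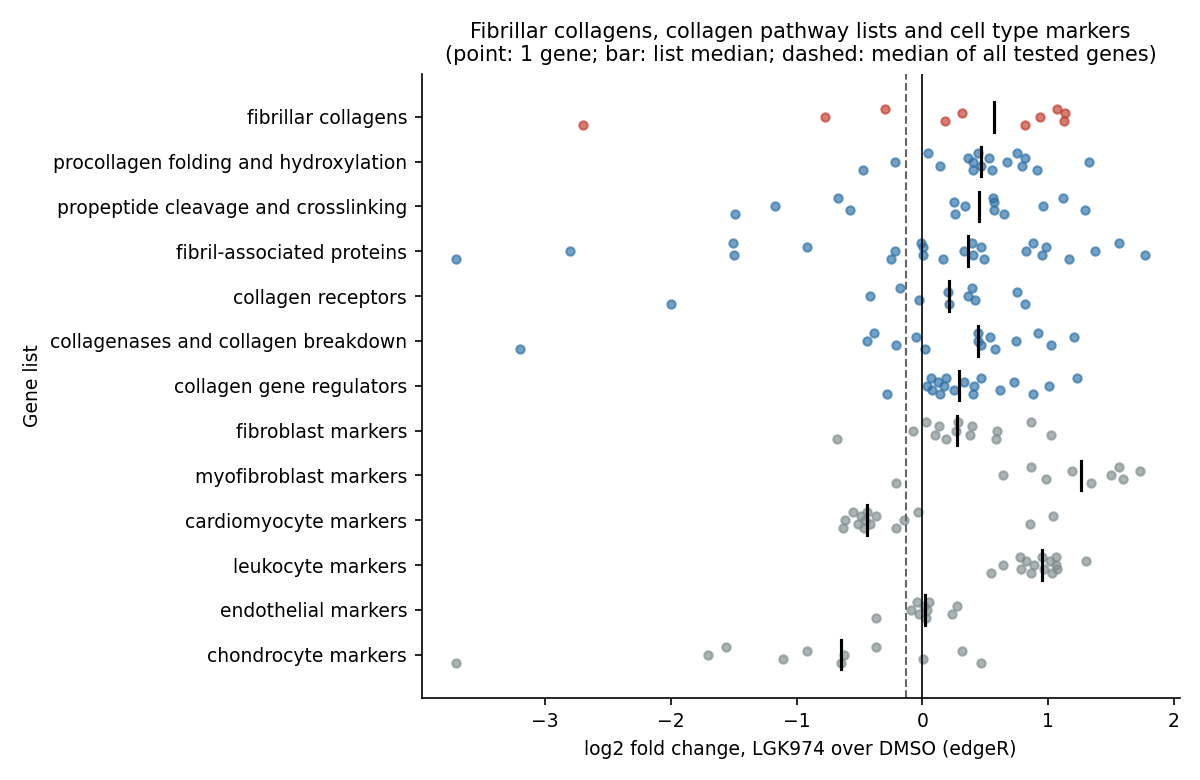
Log2 fold changes (LGK974 over DMSO, edgeR) of the fibrillar collagens in red, of collagen pathway lists in blue and of cell type markers in grey, with a bar at each list's median and a dashed line at the median of all tested genes, -0.13. The median is 0.57 for the fibrillar collagens, 1.27 for myofibroblast markers, 0.95 for leukocyte markers and 0.28 for fibroblast markers.

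Markers of several cell types differed along with the collagens, and their part in the collagen differences was not tested. Summed CPM of 10 myofibroblast markers was 810 to 2015 under LGK974 and 380 to 541 under DMSO, without overlap. Taken singly, 5 of these 10 markers were higher in every LGK974 library than in every DMSO library, against 10.7% of all genes tested. Postn and Tnc were the largest parts of the sum, at 349 and 259 CPM in LGK974 replicate 2. All but 1 of the 10 markers were higher, and 7 were so at an unadjusted p under 0.05 in edgeR, against 6.26% of all genes. Postn is on this list and on that of fibril-associated proteins. Of the defining contractile markers, Acta2 was at 119.9 ± 93.4 CPM under LGK974 and 60.5 ± 10.8 CPM under DMSO (SD, n = 3 each), with overlapping groups. Summed CPM of 14 general fibroblast markers overlapped, at 1104 to 1314 under LGK974 and 856 to 1370 under DMSO. Of the 14, 3 were higher at an unadjusted p under 0.05 in edgeR, against 6.26% of all genes.

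All 15 leukocyte markers were higher under LGK974. At an unadjusted p under 0.05, edgeR gave 14 of them as higher, against 6.26% of all genes. DESeq2 called 7 of them, against 0.985% of genes. The summed CPM of the 15 was 647 to 837 under LGK974 and 349 to 432 under DMSO. Of 15 cardiomyocyte markers 13 were lower, none at an unadjusted p under 0.05. The 2 others, Nppa and Actc1, were higher in every LGK974 library at an unadjusted p under 0.05 in edgeR, with log2 fold changes of 1.04 and 0.86, and both were called by DESeq2. Over all genes tested, 10.7% were higher in every LGK974 library than in every DMSO library. Summed CPM of the 15 cardiomyocyte markers ranged from 42526 to 60776 under LGK974 and from 48441 to 67429 under DMSO. For 10 endothelial markers the ranges overlapped, at 563 to 631 and 492 to 683 CPM. For 11 tested chondrocyte markers the median log2 fold change was -0.65, with summed CPM of 22.8 to 27.7 under LGK974 and 23.4 to 36.8 under DMSO, where DMSO replicate 1 gave the highest value as it did for Col2a1 and Col11a1.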

How the data were processed

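RNA of the infarct area was depleted of ribosomal RNA, and libraries were made with a kit that captures coding RNA with probes, so counts also depend on the probes. The authors quantified transcripts with Kallisto on GRCm38 and deposited, for each of 118489 transcripts, an estimated count, which need not be whole because shared reads are divided between transcripts, and a TPM value. The TPM values of the authors served only for an alternative and for a check of whether the groups overlap. The version of Kallisto is not given in the sources used here.

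Estimated counts were summed per gene through the GENCODE M21 annotation (98.6% of transcripts, 36047 genes) and rounded. Exons of Col3a1 share 141 bases with a microRNA gene, Gm47302, and those of Col5a1 share 99 and 113 bases with 2810430I11Rik and Gm13372 on the other strand. The main test was the quasi-likelihood test of edgeR 4.0.16 in R 4.3.3, with TMM and treatment as the only factor. It ran on the 20094 genes that reached 10 counts in 3 or more libraries, with Benjamini-Hochberg adjustment. DESeq2 1.42.0, limma 3.58.1, other scalings, counting and filters, a replicate block and each library left out were alternatives. CPM is the count scaled to the library total after TMM, and per kb values use the longest transcript of a gene. Pattern likeness used log2(CPM + 0.5). Exact permutation tests were two-sided. Each library is 1 mouse by the study's methods. Named genes were all members, the 3 genes with the smallest p in each pathway list, Col27a1 and the 5 genes with the most similar pattern; a few others are said to be chosen later or are markers. The members were taken by name and not from measured values, but they and the gene lists were chosen with earlier results of these data known. The scripts were tested on simulated data, drawn with the fitted dispersion, in which 200 of 20094 genes were changed by 2 on the log2 scale. At an adjusted p under 0.05, edgeR called 131 genes with 6 false, DESeq2 174 with 42 false and limma-voom 119 with 4 false. With the dispersion fitted without DMSO replicate 1, DESeq2 called 191 with 46 false. Python 3.11.15, NumPy 2.4.6, pandas 2.3.3 and matplotlib 3.10.9 were used.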

Additional observations from a re-analysis of the deposited data

How the results depend on the processing

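Of the 10 members, 7 kept the sign of their log2 fold change under all alternatives that gave a value. They include Col2a1, which was below background in all libraries and gave no value with counts scaled from TPM or counts less background. The log2 fold change of Col11a1 ranged from -1.07 to 0.40 with each library left out, positive without DMSO replicate 1. It was 0.38 in DESeq2 without that library, a fit chosen after seeing the data. That of Col11a2 ranged from -0.79 to 0.13 with each library left out, and turned to 0.071 with library totals in place of TMM, 0.27 with counts scaled from TPM, 1.17 with counts less background and 0.12 in DESeq2 without DMSO replicate 1. That of Col24a1 ranged from -0.66 (without LGK974 replicate 3) to 1.28 (without DMSO replicate 1) with each library left out, was -0.079 and -0.13 without DMSO replicates 2 and 3, and was 5.09 with counts less background. The cause was not tested.

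Called genes numbered 0 in edgeR, 315 with DESeq2, 326 with DESeq2 without DMSO replicate 1, 14 with limma-voom, 1206 in edgeR with no filter on low counts, and 0 to 2 with each library left out. Called members numbered 3 with DESeq2, 2 with DESeq2 without DMSO replicate 1 and 0 under the other alternatives. Library totals moved the median log2 fold change of all genes from -0.13 to 0.079 and that of the members from 0.57 to 0.87. The log2 difference of the Col1a1 to Col1a2 ratio turned to 0.051 with counts scaled from TPM and ranged from -0.099 to 0.081 with each library left out, that of Col3a1 to Col1a1 from -0.049 to 0.23 and that of Col5a1 to Col5a2 from -0.0095 to 0.19. The share of counts and the other 2 ratios kept their sign. The difference in the share was 0.277 to 0.584 percentage points with each library left out. It was 0.186 with counts scaled from TPM, a scale divided by transcript length and not comparable in size.

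Replicate numbers occur in both groups, and deviations of same-numbered libraries correlated at 0.475, -0.048 and 0.391. The values 0.475 and 0.391 were higher than that of any pair with different numbers, while -0.048 lay within the range of those pairs. The main test did not take the numbers as pairs, and whether they mark a shared factor was not tested. With a replicate block edgeR called 0 genes and 0 members, and 3312 genes against 2699 had an unadjusted p under 0.05. In that block the log2 fold change was 1.04 for Col1a1 and 1.13 for Col3a1. The exact sign-flip p was 0.25 for the share and for the Col5a3 to Col5a1 and Col5a2 to Col1a1 ratios. This is the smallest p that 3 replicate numbers can give. Stray reads limit what can be said of Col2a1, below background in all libraries, and of Col11a2 and Col24a1, below it in some.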

Other observations

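Transcripts annotated as retaining an intron were counted for each member. The members named were chosen after their values were seen, and no test is given. In Col5a3 they held 11.7, 13.2 and 6.36% of the gene's counts under LGK974 and 19.4, 16.8 and 15.01% under DMSO, without overlap. Col1a1 also did not overlap, in the other direction and at very low shares, 0.0595 to 0.139% under LGK974 and 0.00638 to 0.0275% under DMSO. In Col1a2 they held 7.34 to 8.91% under LGK974 and 7.44 to 14.6% under DMSO, and in Col3a1 3.59 to 4.07% and 3.78 to 4.95%, both with overlapping groups. In Col5a2 the ranges were 3.31 to 4.80% and 3.68 to 4.34%. With protein-coding transcripts only, the mean log2 ratio of Col5a3 to Col5a1 was lower by 0.44 on the log2 scale, where all transcripts gave 0.55.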
